A study of Mus musculus with 6 samples.

Results

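The genes described here encode carriers that move glucose and other sugars, amino acids and monocarboxylates such as lactate across cell membranes. They were chosen by symbol, by the prefix of the solute carrier families Slc1, Slc2, Slc3, Slc5, Slc6, Slc7, Slc16, Slc36, Slc38 and Slc43, with 1 gene left out, which gave 105 of the 47455 gene symbols measured. Of these, 100 are transporter genes, and the other 5 share only the prefix. Slc7a6os is a neighbouring protein-coding gene, Slc6a19os, Slc36a1os and Slc36a3os are antisense genes, and Slc2a4rg-ps is a pseudogene. Whole epidermis was taken from 3 C57BL/6 mice aged 6 to 8 weeks. Skin of the back received 8 wounds with a 3 mm punch, and the wounded group was collected 2 h after them. The non-wounded group came from the same 3 mice, so that each mouse gave 1 library to each group and no further treatment or allele separates them. A collection time for the non-wounded skin is not given in the labels. The epidermis was freed from the dermis in trypsin, and poly-dT captured RNA was sequenced to between 20746185 and 26814845 estimated counts per library.

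Sugar enters cells through facilitative carriers of the Slc2 (GLUT) family and, against its gradient, through sodium-coupled carriers of the Slc5 family. Amino acids enter by sodium-coupled carriers (Slc1, Slc6, Slc38), by the exchangers of the Slc7 family, some of which need the heavy chains Slc3a1 or Slc3a2 to reach the membrane, and by the facilitative carriers of the Slc43 family. Slc36 carriers move amino acids with protons, and Slc16 (MCT) carriers move lactate, pyruvate, ketone bodies and, for some members, aromatic amino acids. In epidermis, GLUT1 is the main glucose carrier known in keratinocytes, and the large neutral amino acid carriers feed protein synthesis. The Slc5 and Slc6 families also hold carriers of other cargo, such as myo-inositol, vitamins, creatine, taurine and neurotransmitters, which the choice by family number brings in.

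Wounded epidermis had more transcript of the sodium-coupled carriers Slc38a2, Slc5a8, Slc5a1 and Slc1a1 and of the lactate carrier Slc16a1, and less of the sugar carrier Slc2a12 and of Slc16a14, Slc43a1 and Slc43a2. Counts were scaled by TMM (a factor per library that balances the bulk of genes) and are given as CPM, which count reads of a gene per fixed total of the library. A gene was called when its Benjamini-Hochberg adjusted p was under 0.05 in edgeR's quasi-likelihood test across all genes. Of the 100 transporter genes, 64 passed the filter on low counts. Among those, 16 were called higher and 25 lower in wounded epidermis, and all 16 and 25 kept that direction within each of the 3 mice. So did nearly all called genes, with 3790 of 3859 called higher and 3849 of 3917 called lower, so this is near the background. Over all symbols of the rule that were tested (67), 43 were called (64.2%), against 48.4% of all genes tested. For calls of higher genes the share was 25.4% against 24.0% of all genes, so that it lay near the background. For calls of lower genes it was 38.8% against 24.4%. A change of at least 2-fold was called as higher for 12 (background 8.79%) and as lower for 12 (background 9.75%) of the 67. In CPM the libraries of both groups did not overlap for 46 of them (68.7%, background 58.5%). The median log2 fold change, wounded over non-wounded, was -0.09 over the 67 and -0.03 over all genes tested. Among the 183 tested genes of other Slc families, 41 were called higher and 56 lower (53.0%). Because genes with low counts enter the test more easily when 1 group is high, these shares describe the genes that passed the filter and not the families as a whole. With the mouse as a block 18 of the 67 symbols were called higher and 27 lower, against 53.3% of all genes in either direction (26.2% higher and 27.1% lower). Scaling by library totals alone gave 15 higher and 33 lower symbols, against 54.9% of all genes (13.5% higher and 41.4% lower). In bulk tissue, fewer cells of a type and less RNA per cell cannot be told apart.

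Most of the remaining symbols were near absent. The 38 symbols that were not tested had at most 21 counts in any library (Slc5a10), and 6 of them had 0 counts in every library, which allows up to 3 counts per library by counting error alone. They include the cystine carrier heavy chain Slc3a1, the liver glucose carrier Slc2a2, the kidney glucose carrier Slc5a2, the iodide carrier Slc5a5 and the dopamine carrier Slc6a3. Among the 5 other symbols, Slc7a6os rose (log2 0.88, SE 0.09) and Slc2a4rg-ps fell (log2 -1.28, SE 0.25), while Slc6a19os, with 41 counts in non-wounded and 11 in wounded libraries, did not pass. The transporter genes Slc5a11, Slc7a14, Slc16a4, Slc16a7, Slc38a3, Slc38a4 and Slc38a11 were tested and not called, at 0.328 to 14.7 CPM per library.

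Marker lists of other cell types moved between the groups, and their part in the transporter results was not tested. The 6 keratinocyte markers summed to 26703 to 32717 CPM in non-wounded and 26826 to 30782 CPM in wounded libraries, in keeping with the labelled tissue in all 6 libraries. Fibroblast markers summed to 2.67 to 7.36 CPM in non-wounded and 29.7 to 65.4 CPM in wounded libraries (5 of 5 tested genes higher and 0 lower), skeletal muscle markers to 3.85 to 3.98 CPM in non-wounded and 10.9 to 14.1 CPM in wounded libraries (4 of 5 tested genes higher and 0 lower) and red blood cell markers to 18.9 to 26.1 CPM in non-wounded and 97.3 to 165 CPM in wounded libraries (5 of 5 tested genes higher and 0 lower). Adipocyte markers summed to 0.229 to 0.863 CPM in non-wounded and 1.03 to 1.56 CPM in wounded libraries (0 of 1 tested genes called). Lep had 0 counts in every library. Macrophage markers, of which Csf1r also marks Langerhans cells, fell in sum (0 of 4 tested genes higher and 2 lower). They held 89.1 to 103 CPM in non-wounded and 39.1 to 54.4 CPM in wounded libraries. Mrc1 of that list was under 1 CPM but higher in every wounded than in every non-wounded library. The 2 called lower were Csf1r (mean 66.7 to 29.0 CPM) and Adgre1 (mean 24.2 to 13.4 CPM). C1qa (log2 -0.41) and C1qb (log2 0.73) did not pass. Slc2a5, which macrophage lineages such as microglia express, was called lower too, and a link to these markers was not tested. Langerhans cell markers summed to 921 to 979.9 CPM in non-wounded and 1103 to 1426 CPM in wounded libraries (1 of 4 tested genes higher and 1 lower) and epidermal T cell markers to 108 to 139 CPM in non-wounded and 87.0 to 101 CPM in wounded libraries (0 of 4 tested genes higher and 3 lower). Neutrophil markers summed to 1.63 to 2.36 CPM in non-wounded and 4.50 to 8.19 CPM in wounded libraries (2 of 2 tested genes higher and 0 lower), with Ly6g at 0 counts in every library. Melanocyte markers summed to 3.49 to 5.14 CPM in non-wounded and 6.84 to 8.52 CPM in wounded libraries (1 of 4 tested genes higher and 0 lower). Smooth muscle markers summed to 5.68 to 19.1 CPM in non-wounded and 1.47 to 2.62 CPM in wounded libraries, where Acta2 alone was tested and fell (log2 -3.27), while Des and Cnn1 were under 1 CPM but higher in every wounded than in every non-wounded library. Schwann cell markers summed to 1.67 to 2.59 CPM in non-wounded and 0.799 to 2.34 CPM in wounded libraries (0 of 1 tested genes higher and 1 lower). Endothelial markers stayed at or under 3.29 CPM and mast cell markers at or under 0.656 CPM in sum.

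Levels of different genes were compared in TPM, which allow for transcript length and library size. In non-wounded epidermis the transporter with the highest mean TPM was Slc3a2, the heavy chain CD98 that pairs with several Slc7 carriers. It was followed by the creatine carrier gene Slc6a8, the taurine carrier gene Slc6a6 and Slc38a2, which encodes the sodium-coupled neutral amino acid carrier SNAT2. Their means were 208 ± 19.7, 144 ± 21.4, 141 ± 32.5 and 125 ± 30.0 TPM (SD, n = 3). The last 3 of these overlap between libraries, so their order is not set. In wounded epidermis Slc3a2 and Slc38a2 stood together at the top, with 300.2 ± 23.0 and 293 ± 25.8 TPM, and their libraries overlapped. Slc6a8 followed with 125 ± 8.24 TPM and Slc6a14 with 115 ± 4.55 TPM. Summed over the 100 transporter genes, the level went from 1174 to 1309 TPM in mouse 1, from 1287 to 1355 TPM in mouse 2 and from 1429 to 1513 TPM in mouse 3. It was higher in the wounded library of each mouse, although the ranges of the groups overlap, and was not tested. TPM are scaled to the total of each library and shift log2 changes by -0.29 (median over genes) relative to TMM, so calls rest on the counts and TPM serve for levels.

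**Figure D1:**
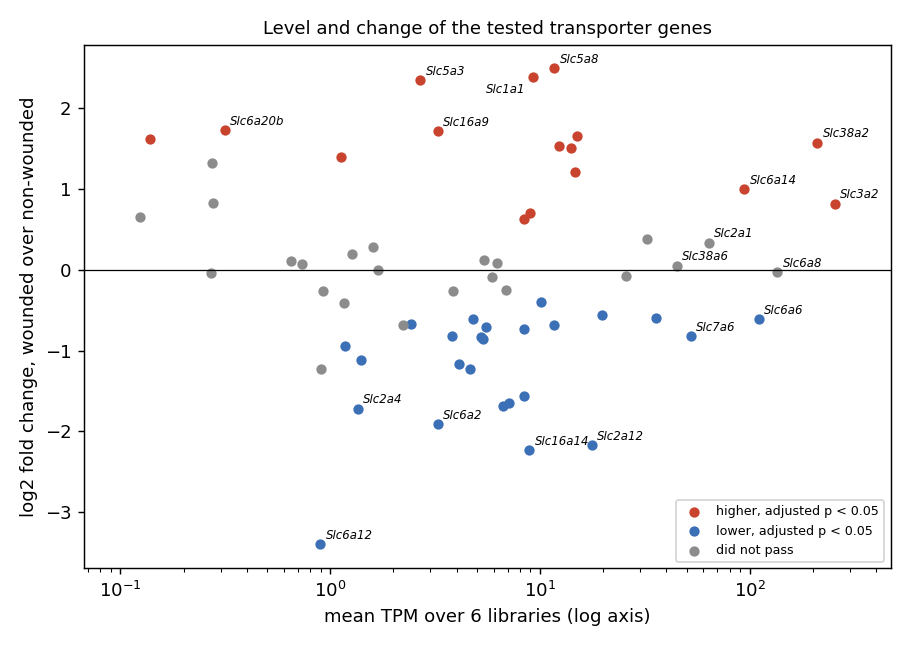
Each point is 1 of the 64 tested transporter genes, with the mean TPM over 6 libraries on a log axis and the log2 fold change (wounded over non-wounded, TMM-scaled counts) on the vertical axis, coloured by call. Slc38a2, Slc3a2 and Slc6a14 join a high level to a rise, Slc6a8 lies near 0, and Slc2a12 and Slc16a14 are among the deepest falls.

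In the facilitative sugar carrier family Slc2, Slc2a12 and Slc2a4 fell by the largest factors among its called genes. Of 12 genes 8 were tested, 0 were called higher and 5 lower, against 24.0% and 24.4% of all genes. The counts of every other family stand against the same shares, are small and were not tested against them. Slc2a1 encodes GLUT1, the basal glucose carrier of most cells. Its libraries held 85.4, 109 and 125 CPM in non-wounded and 125, 143 and 134 CPM in wounded epidermis. The lowest wounded library (mouse 1) stood level with the highest non-wounded one (mouse 3), and the difference did not pass (log2 0.33, SE 0.13, adjusted p = 0.0577 by edgeR), at log2 0.10 to 0.55 within the 3 mice. It was called with no filter on low counts, with the mouse as a block, in DESeq2 or with non-wounded mouse 3 left out (adjusted p from 0.0127 to 0.0317 there, 0.0127 to 0.959 over all settings). Slc2a12, which encodes GLUT12, a glucose carrier first described as insulin-responsive, held 65.6, 59.5 and 69.2 CPM in non-wounded and 16.6, 15.4 and 10.9 CPM in wounded epidermis. It fell 4.51-fold (log2 -2.17, SE 0.15, adjusted p = 3.74e-06 by edgeR), with every wounded library far under every non-wounded one. Tbpl1 shares exon sequence with it on the other strand, and the strand setting of the counting is not given in the sources used here. Slc2a4, the insulin-responsive GLUT4 of muscle and fat, held 2.84, 3.05 and 4.56 CPM in non-wounded and 0.703, 1.22 and 1.24 CPM in wounded epidermis. It fell 3.29-fold (log2 -1.72, SE 0.34, adjusted p = 0.00225 by edgeR), and the groups did not overlap. Markers of skeletal muscle summed to 3.85 to 3.98 CPM in non-wounded and 10.9 to 14.1 CPM in wounded libraries. Of the 5 tested muscle markers 4 were called higher, and Mylpf did not pass (log2 0.05). Adipocyte markers summed to 0.229 to 0.863 CPM in non-wounded and 1.03 to 1.56 CPM in wounded libraries (0 of 1 tested genes called). The part of either cell type in the fall of Slc2a4 was not tested.

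The other 3 falls of the Slc2 family were smaller. Slc2a5, the fructose carrier GLUT5, went from 14.7 ± 4.25 to 8.89 ± 2.43 CPM (log2 -0.73, SE 0.24), the intracellular carrier gene Slc2a8 from 8.39 ± 2.32 to 5.13 ± 1.33 CPM (log2 -0.71, SE 0.26), and the urate and sugar carrier gene Slc2a9 from 2.67 ± 0.0754 to 1.39 ± 0.278 CPM (log2 -0.94, SE 0.30). The call of Slc2a5 ended with non-wounded mouse 3 left out or with wounded mouse 2 or 3 left out (adjusted p from 0.093 to 0.118 there, 6.58e-04 to 0.118 over all settings). The call of Slc2a8 ended on log2(TPM + 1), on log2(TPM + 0.1), with non-wounded mouse 1 or 2 left out or with wounded mouse 2 or 3 left out (adjusted p from 0.051 to 0.175 there, 0.00649 to 0.175 over all settings). The call of Slc2a9 ended on log2(TPM + 0.1), with non-wounded mouse 2 or 3 left out or with wounded mouse 2 or 3 left out (adjusted p from 0.0512 to 0.0808 there, 0.00457 to 0.0808 over all settings). Slc2a3, the high-affinity GLUT3, had 1.07 to 1.85 CPM and Slc2a6 1.44 to 3.14 CPM over the 6 libraries, with overlapping groups. In TPM the family summed to 100.03 to 140.3 TPM in non-wounded and 78.9 to 86.0 TPM in wounded libraries. Slc2a1 made up 51.7% to 55.4% of it in non-wounded and 74.0% to 82.1% in wounded libraries, and Slc2a12 made up 25% to 25.2% of it in non-wounded and 4.64% to 10.9% in wounded libraries.

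In the sodium-coupled Slc5 family, Slc5a1, Slc5a3 and Slc5a8 rose and Slc5a9 fell. Of 13 genes 6 were tested, 3 rose and 1 fell. Slc5a1 encodes SGLT1, the high-affinity sodium and glucose cotransporter known from the gut. Its libraries held 20.3, 26.3 and 30.8 CPM in non-wounded and 80.7, 73.4 and 89.7 CPM in wounded epidermis. It rose 3.15-fold (log2 1.66, SE 0.15, adjusted p = 1.78e-05 by edgeR), and the lowest wounded library was above the highest non-wounded one. Slc5a8 encodes SMCT1, which takes up lactate, pyruvate and short-chain fatty acids with sodium. It held 15.0, 19.8 and 16.4 CPM in non-wounded and 92.8, 94.2 and 100.0025 CPM in wounded epidermis, with wounded libraries close together. It rose 5.61-fold (log2 2.49, SE 0.12, adjusted p = 9.06e-07 by edgeR). Slc5a3 encodes SMIT1, the myo-inositol carrier that cells use against osmotic stress. It held 5.84, 6.51 and 6.37 CPM in non-wounded and 27.6, 29.5 and 37.7 CPM in wounded epidermis and rose 5.06-fold (log2 2.34, SE 0.15, adjusted p = 2.54e-06 by edgeR). Slc5a3 lies inside the locus of Mrps6 on the same strand and shares exon sequence with it, so that the split of reads between them is uncertain, and Mrps6 itself was called higher (log2 0.87). Slc5a9, the mannose and sugar carrier SGLT4, went from 26.8 ± 1.93 to 16.7 ± 3.04 CPM and fell (log2 -0.69, SE 0.15, adjusted p = 0.00328 by edgeR). The vitamin carrier gene Slc5a6 had 7.20 ± 1.06 CPM in non-wounded and 7.87 ± 1.48 CPM in wounded epidermis and did not pass. In TPM the family summed to 35.8 to 36.8 TPM in non-wounded and 55.7 to 68.8 TPM in wounded libraries.

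**Figure D2:**
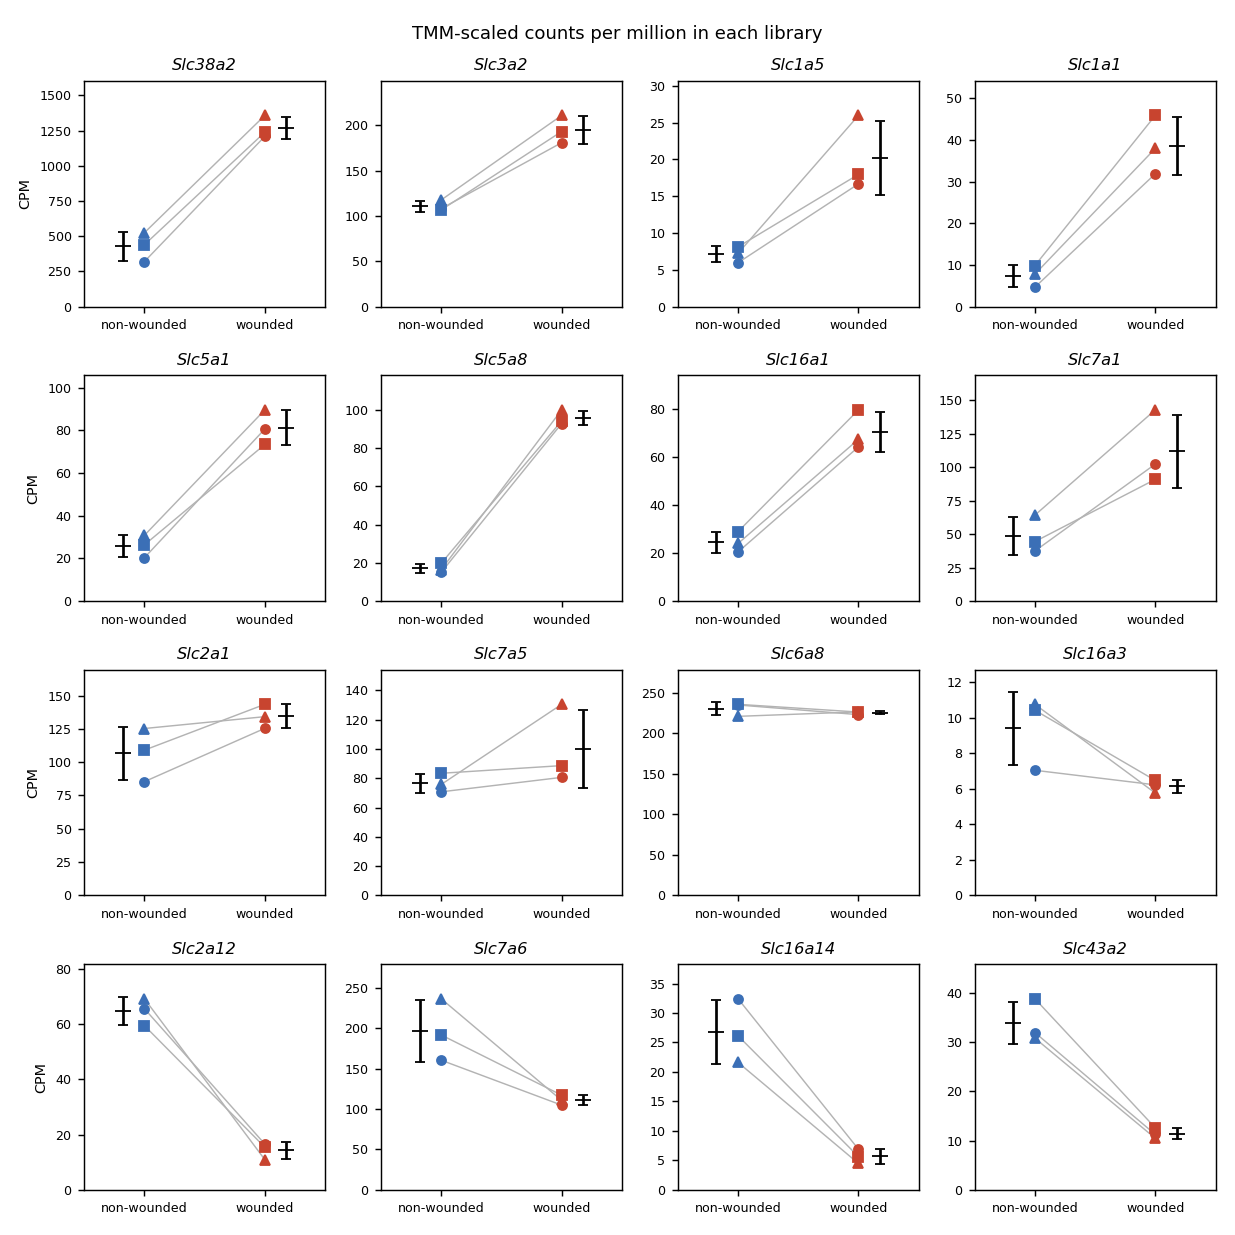
CPM (TMM-scaled) of 16 transporter genes in each library, with 1 symbol per mouse, grey lines joining the libraries of a mouse, and the mean ± SD (n = 3) beside each group in black. The top 8 genes rose in every mouse. Slc2a1, Slc7a5 and Slc6a8 did not pass, and Slc16a3 and the bottom 4 genes were called lower.

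Monocarboxylate carriers of the Slc16 family moved in both directions. Of 14 genes 11 were tested, 2 rose and 5 fell. Slc16a1 encodes MCT1, the widely expressed lactate and pyruvate carrier. It held 20.4, 28.9 and 24.0 CPM in non-wounded and 64.2, 79.6 and 67.4 CPM in wounded epidermis. It rose 2.88-fold (log2 1.53, SE 0.14, adjusted p = 2.04e-05 by edgeR), with no overlap. Slc16a3 encodes MCT4, the low-affinity carrier known for lactate export from glycolytic cells. It held 7.05, 10.4 and 10.8 CPM in non-wounded and 6.23, 6.48 and 5.77 CPM in wounded epidermis and was called lower (log2 -0.61, SE 0.20, adjusted p = 0.0291 by edgeR). The call of Slc16a3 ended on log2(TPM + 1), on log2(TPM + 0.1), with non-wounded mouse 2 or 3 left out or with wounded mouse 1, 2 or 3 left out (adjusted p from 0.0572 to 0.101 there, 0.00275 to 0.101 over all settings). Slc16a9, a carnitine carrier gene, held 2.46, 3.31 and 4.23 CPM in non-wounded and 11.7, 9.59 and 11.6 CPM in wounded epidermis and rose 3.28-fold (log2 1.71, SE 0.23, adjusted p = 1.75e-04 by edgeR).

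The falls of the family were led by 3 genes with little known cargo. Slc16a14 held 32.4, 26.1 and 21.6 CPM in non-wounded and 6.89, 5.64 and 4.47 CPM in wounded epidermis. It fell 4.70-fold (log2 -2.23, SE 0.20, adjusted p = 1.53e-05 by edgeR), by nearly the same factor in each mouse (log2 -2.27 to -2.21). Slc16a11 and Slc16a13 are neighbours on chromosome 11. Slc16a11 held 8.04, 6.70 and 6.58 CPM in non-wounded and 2.53, 1.64 and 2.48 CPM in wounded epidermis and fell 3.21-fold (log2 -1.68, SE 0.24, adjusted p = 2.94e-04 by edgeR). Slc16a13 held 11.4, 8.27 and 11.2 CPM in non-wounded and 6.42, 4.25 and 2.43 CPM in wounded epidermis and fell 2.34-fold (log2 -1.23, SE 0.30, adjusted p = 0.00715 by edgeR). Both had every wounded library under every non-wounded one. Slc16a6, which encodes MCT7, went from 19.7 ± 1.89 to 15.0 ± 1.38 CPM (log2 -0.39, SE 0.13). The call of Slc16a6 ended with non-wounded mouse 1 or 3 left out or with wounded mouse 2 or 3 left out (adjusted p from 0.0736 to 0.0882 there, 0.00113 to 0.0882 over all settings). Amz2, which was called lower too, shares exon sequence with Slc16a6 on the other strand. The aromatic amino acid carrier gene Slc16a10 did not pass (log2 -0.27, SE 0.19, adjusted p = 0.273 by edgeR). As lower it was called with library totals alone (adjusted p = 0.0228 there, 0.0228 to 0.926 over all settings). In TPM the family summed to 69.5 to 85.9 TPM in non-wounded and 50.1 to 51.8 TPM in wounded libraries, of which Slc16a1 was 7.41% to 12.5% in non-wounded and 30.5% to 36.4% in wounded libraries.

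Upstream of the called genes, short motifs of known regulators stood before genes of both directions. RefSeq windows of the 250 bases before the start of transcription (build GRCm38.p6) were found for 76 of the 105 symbols, among them 13 of the 16 transporter genes called higher and 18 of the 25 called lower. Both strands were searched. Windows were also found for 14 tested transporter genes that were not called. Shares are of all 27025 genes with a RefSeq window, and a gene counts if any of its windows holds the motif. The E-box CACGTG, read by MYC, MAX and circadian factors, stood in 2 of the higher genes (Slc16a1 and Slc5a1). It also stood in 3 lower genes (Slc36a1, Slc38a7 and Slc43a1), in 1 gene not called and in 6.86% of all genes. The hypoxia core ACGTG, which lies within the E-box, stood in 3 higher, 5 lower and 3 genes not called and in 18.5% of all genes. The other hypoxia core, GCGTG, stood in 8 higher, 7 lower and 7 genes not called and in 30.9% of all genes. The AP-1 site TGANTCA stood in 2 higher genes (Slc6a14 and Slc7a1), 3 lower genes, 1 gene not called and 7.82% of all genes. The CRE-ATF composite TGATGNAA and the cAMP element TGACGTCA stood in none of the called genes' windows, against 3.91% and 1.77% of all genes. These counts were not tested, a gene can have several windows, and a match is a string of letters and not a bound site. Shown 5′ to 3′ on the gene's strand, with E-boxes and hypoxia cores of either strand in capitals, are Slc16a1 (chr3:104638414-104638663, plus strand) and Slc5a1 (chr5:33103969-33104218, plus strand) as genes that rose, Slc36a1 (chr11:55204090-55204339, plus strand) as a gene that fell with the same E-box, and Slc38a2 (chr15:96699729-96699978, minus strand) as the most abundant riser of its family, which has none of these motifs.
Slc16a1: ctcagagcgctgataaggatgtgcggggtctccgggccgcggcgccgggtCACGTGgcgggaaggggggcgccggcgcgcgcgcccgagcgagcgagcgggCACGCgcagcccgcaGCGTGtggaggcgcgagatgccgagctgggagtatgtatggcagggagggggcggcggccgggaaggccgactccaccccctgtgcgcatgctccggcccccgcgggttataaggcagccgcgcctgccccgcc
Slc5a1: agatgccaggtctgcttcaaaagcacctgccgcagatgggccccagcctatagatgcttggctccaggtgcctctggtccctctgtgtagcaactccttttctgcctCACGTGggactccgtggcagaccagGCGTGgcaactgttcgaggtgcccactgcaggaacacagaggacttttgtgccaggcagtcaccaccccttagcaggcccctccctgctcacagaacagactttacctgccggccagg
Slc36a1: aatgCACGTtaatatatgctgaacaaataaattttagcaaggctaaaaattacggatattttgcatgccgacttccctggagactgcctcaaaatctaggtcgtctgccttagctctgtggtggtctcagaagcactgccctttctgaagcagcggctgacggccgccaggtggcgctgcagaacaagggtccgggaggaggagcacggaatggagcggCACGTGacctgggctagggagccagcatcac
Slc38a2: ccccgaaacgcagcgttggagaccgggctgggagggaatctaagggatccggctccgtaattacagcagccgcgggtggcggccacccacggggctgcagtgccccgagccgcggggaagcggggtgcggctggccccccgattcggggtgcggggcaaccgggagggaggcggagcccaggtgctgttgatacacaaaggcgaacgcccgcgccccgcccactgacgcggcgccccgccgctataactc

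Among sodium-coupled amino acid carriers, Slc38a2, Slc38a1, Slc1a1 and Slc1a5 rose, whereas Slc1a4, Slc38a7 and Slc38a9 fell. Of 11 Slc38 genes 9 were tested, 2 rose and 2 fell. Slc38a2 (chr15:96687392-96699730, minus strand, GRCm38) encodes SNAT2, which takes up glutamine, alanine and other small neutral amino acids. It held 319, 439 and 524 CPM in non-wounded and 1208, 1238 and 1357 CPM in wounded epidermis. It rose 2.97-fold (log2 1.57, SE 0.16, adjusted p = 3.48e-05 by edgeR), and all wounded libraries were above all non-wounded ones. The related carrier gene Slc38a1 (SNAT1) held 3.41, 4.42 and 4.36 CPM in non-wounded and 9.65, 11.4 and 11 CPM in wounded epidermis and rose 2.63-fold (log2 1.40, SE 0.19, adjusted p = 1.95e-04 by edgeR). Both genes that fell act at lysosomes. Slc38a9, whose product senses arginine there for the growth kinase complex mTORC1, went from 21.7 ± 3.34 to 13.6 ± 0.362 CPM (log2 -0.67, SE 0.14). Slc38a7, known for lysosomal export of glutamine, went from 12.8 ± 1.10 to 7.20 ± 0.553 CPM (log2 -0.83, SE 0.16). Slc38a6, the second gene of the family by TPM, had overlapping groups at 138 ± 29.9 CPM in non-wounded and 143 ± 25.7 CPM in wounded epidermis. Slc38a10 did not pass (log2 -0.08, SE 0.09, adjusted p = 0.512 by edgeR). As lower it was called with library totals alone, on log2(TPM + 1) or on log2(TPM + 0.1) (adjusted p from 0.0036 to 0.0282 there, 0.0036 to 0.786 over all settings). In TPM the family summed to 188 to 252 TPM in non-wounded and 350.5 to 393 TPM in wounded libraries, and Slc38a2 made up 50.5% to 61.5% of it in non-wounded and 76.9% to 82.1% in wounded libraries.

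Of 7 Slc1 genes 4 were tested. Slc1a1 encodes EAAC1, which takes up glutamate, aspartate and cysteine. It held 4.63, 9.83 and 7.77 CPM in non-wounded and 31.9, 45.9 and 38 CPM in wounded epidermis. It rose 5.21-fold (log2 2.38, SE 0.24, adjusted p = 3.39e-05 by edgeR), and the groups lay far apart. Slc1a5 encodes ASCT2, which exchanges glutamine and other neutral amino acids. It held 5.95, 8.11 and 7.23 CPM in non-wounded and 16.7, 18.0 and 26.0 CPM in wounded epidermis and rose 2.84-fold (log2 1.51, SE 0.20, adjusted p = 1.83e-04 by edgeR). Slc1a4 encodes the related carrier ASCT1 for serine, alanine, cysteine and threonine, and it went the other way. It held 19.6, 14.7 and 17.2 CPM in non-wounded and 9.13, 6.56 and 7.28 CPM in wounded epidermis and fell 2.24-fold (log2 -1.17, SE 0.18, adjusted p = 4.38e-04 by edgeR), with every wounded library under every non-wounded one. The glutamate carrier gene Slc1a3 (GLAST) had overlapping groups, at 16.8 ± 2.14 CPM in non-wounded and 15.8 ± 2.18 CPM in wounded epidermis, and did not pass. In TPM Slc1a1 made up 7.46% to 15.6% of it in non-wounded and 33.5% to 40.7% in wounded libraries, where the Slc1 family summed to 24.3 to 25.7 TPM in non-wounded and 36.8 to 45.5 TPM in wounded libraries.

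**Figure D3:**
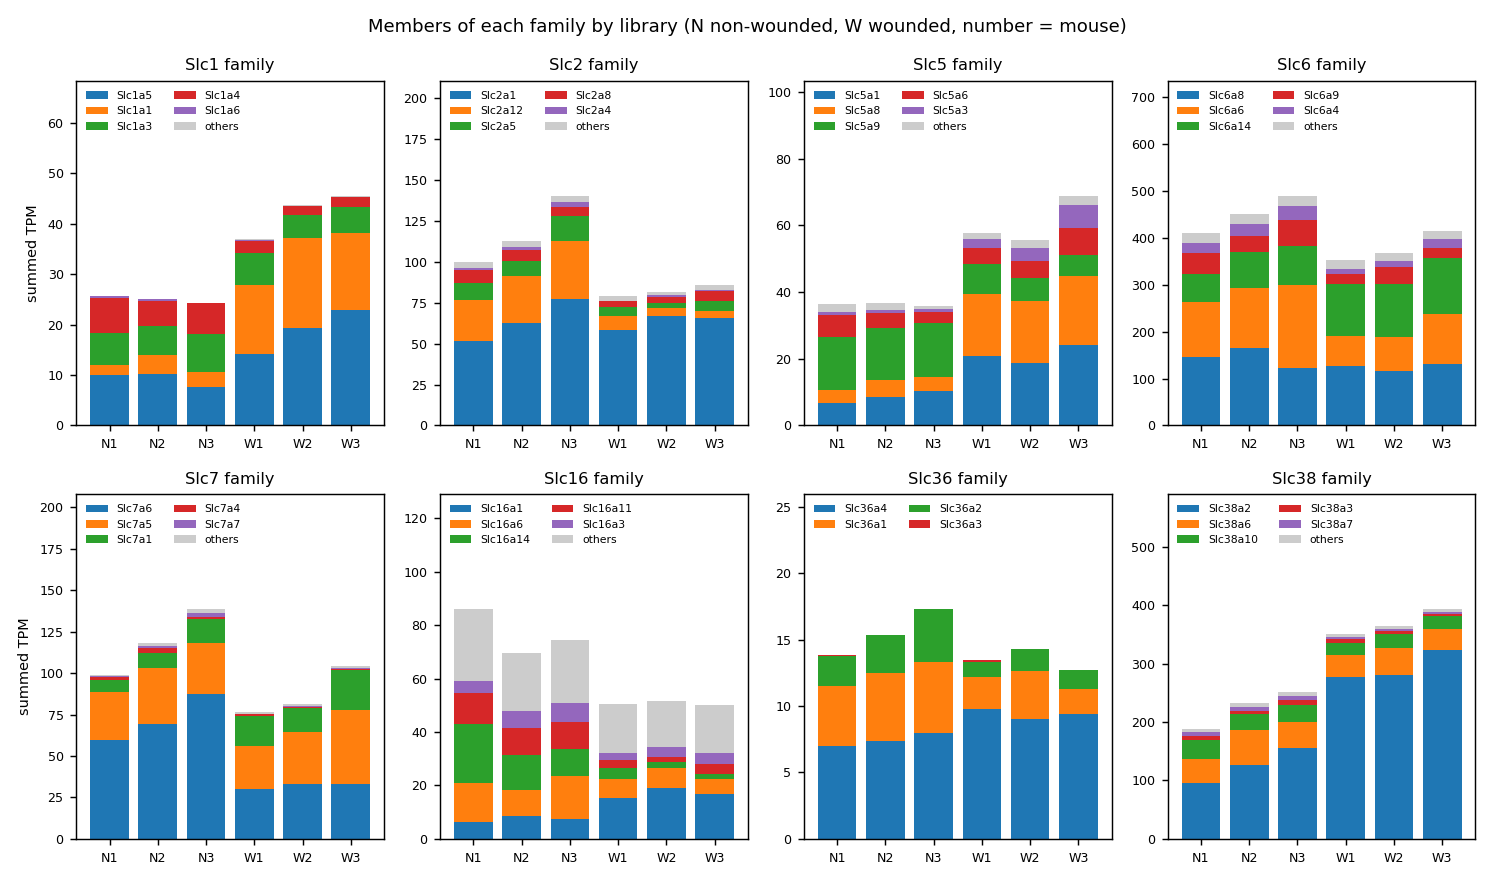
Stacked bars give the TPM of up to 5 abundant members of each of 8 families in each library, with the remaining members in grey. N marks non-wounded and W wounded libraries, and the number is the mouse. The Slc1, Slc5 and Slc38 sums are higher and the Slc2 and Slc16 sums lower in all 3 wounded libraries. The ranges of the Slc6, Slc7 and Slc36 sums overlap, with the wounded library lower in each mouse. TPM shift log2 changes by -0.29 (median over genes) relative to TMM, so the lower sums are not read as falls.

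The heavy chain Slc3a2 rose, whereas its light-chain partners of the Slc7 family did not move together. Slc3a2 (chr19:8706882-8723369, minus strand, GRCm38) held 108, 107 and 118 CPM in non-wounded and 181, 193 and 211 CPM in wounded epidermis. It rose 1.76-fold (log2 0.82, SE 0.09, adjusted p = 6.89e-05 by edgeR), by a similar factor in each mouse (log2 0.74 to 0.86). Slc7a5 encodes LAT1, the partner of Slc3a2 that brings in large neutral amino acids such as leucine. It held 70.7, 83.4 and 75.8 CPM in non-wounded and 80.6, 88.7 and 131 CPM in wounded epidermis. The groups overlapped, the highest value was the wounded library of mouse 3, and the difference did not pass (log2 0.38, SE 0.16, adjusted p = 0.0768 by edgeR). It was called with no filter on low counts, with the mouse as a block, in DESeq2 or with wounded mouse 1 left out (adjusted p from 0.0114 to 0.0406 there, 0.0114 to 0.79 over all settings). Slc7a6 encodes y+LAT2, another partner of Slc3a2, which exchanges cationic for neutral amino acids. It held 161, 192 and 237 CPM in non-wounded and 105, 117 and 111 CPM in wounded epidermis and fell 1.77-fold (log2 -0.82, SE 0.13, adjusted p = 6.02e-04 by edgeR), with no overlap. The rarer partners Slc7a7 and Slc7a8 did not pass, at 0.927 ± 0.636 and 0.392 ± 0.107 CPM for Slc7a7 and 0.683 ± 0.398 and 1.21 ± 0.0689 CPM for Slc7a8 in non-wounded and wounded epidermis. Slc7a7 passed as lower with library totals alone or with non-wounded mouse 1 left out (adjusted p from 0.039 to 0.0494 there, 0.039 to 0.492 over all settings). Oxa1l, at a mean of 26.5 CPM and called lower (log2 -0.49), shares exon sequence with Slc7a7 on the other strand.

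The cationic carriers CAT1 and CAT2 of the Slc7 family need no heavy chain. Slc7a1 encodes CAT1, the main importer of arginine and lysine in most cells. It held 37.4, 44.4 and 64.2 CPM in non-wounded and 102, 91.0 and 143 CPM in wounded epidermis. It rose 2.30-fold (log2 1.20, SE 0.21, adjusted p = 9.87e-04 by edgeR), with every wounded library above every non-wounded one. Slc7a2 (CAT2), which serves inducible arginine uptake in macrophages, had overlapping groups between 2.84 and 4.08 CPM. Slc7a4, a relative with unsettled cargo, held 3.22, 2.40 and 2.26 CPM in non-wounded and 0.890, 1.30 and 1.46 CPM in wounded epidermis and was called lower (log2 -1.11, SE 0.33, adjusted p = 0.0177 by edgeR). The call of Slc7a4 ended with non-wounded mouse 1 left out or with wounded mouse 1 left out (adjusted p from 0.0634 to 0.0687 there, 0.00387 to 0.0687 over all settings). In TPM the share of Slc7a6 in the family was 58.6% to 63.2% in non-wounded and 31.7% to 40.9% in wounded libraries. Both tested Slc43 genes fell, and these encode facilitative carriers of large neutral amino acids. Slc43a1 (LAT3) held 20.6, 14.5 and 28.6 CPM in non-wounded and 4.92, 5.05 and 10.4 CPM in wounded epidermis. It fell 3.15-fold (log2 -1.65, SE 0.32, adjusted p = 0.00171 by edgeR). Slc43a2 (LAT4) held 31.9, 38.8 and 30.8 CPM in non-wounded and 11.2, 12.6 and 10.5 CPM in wounded epidermis and fell 2.96-fold (log2 -1.56, SE 0.13, adjusted p = 1.23e-05 by edgeR). Neither gene had overlapping groups, and both fell in 3 of 3 mice.

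**Figure D4:**
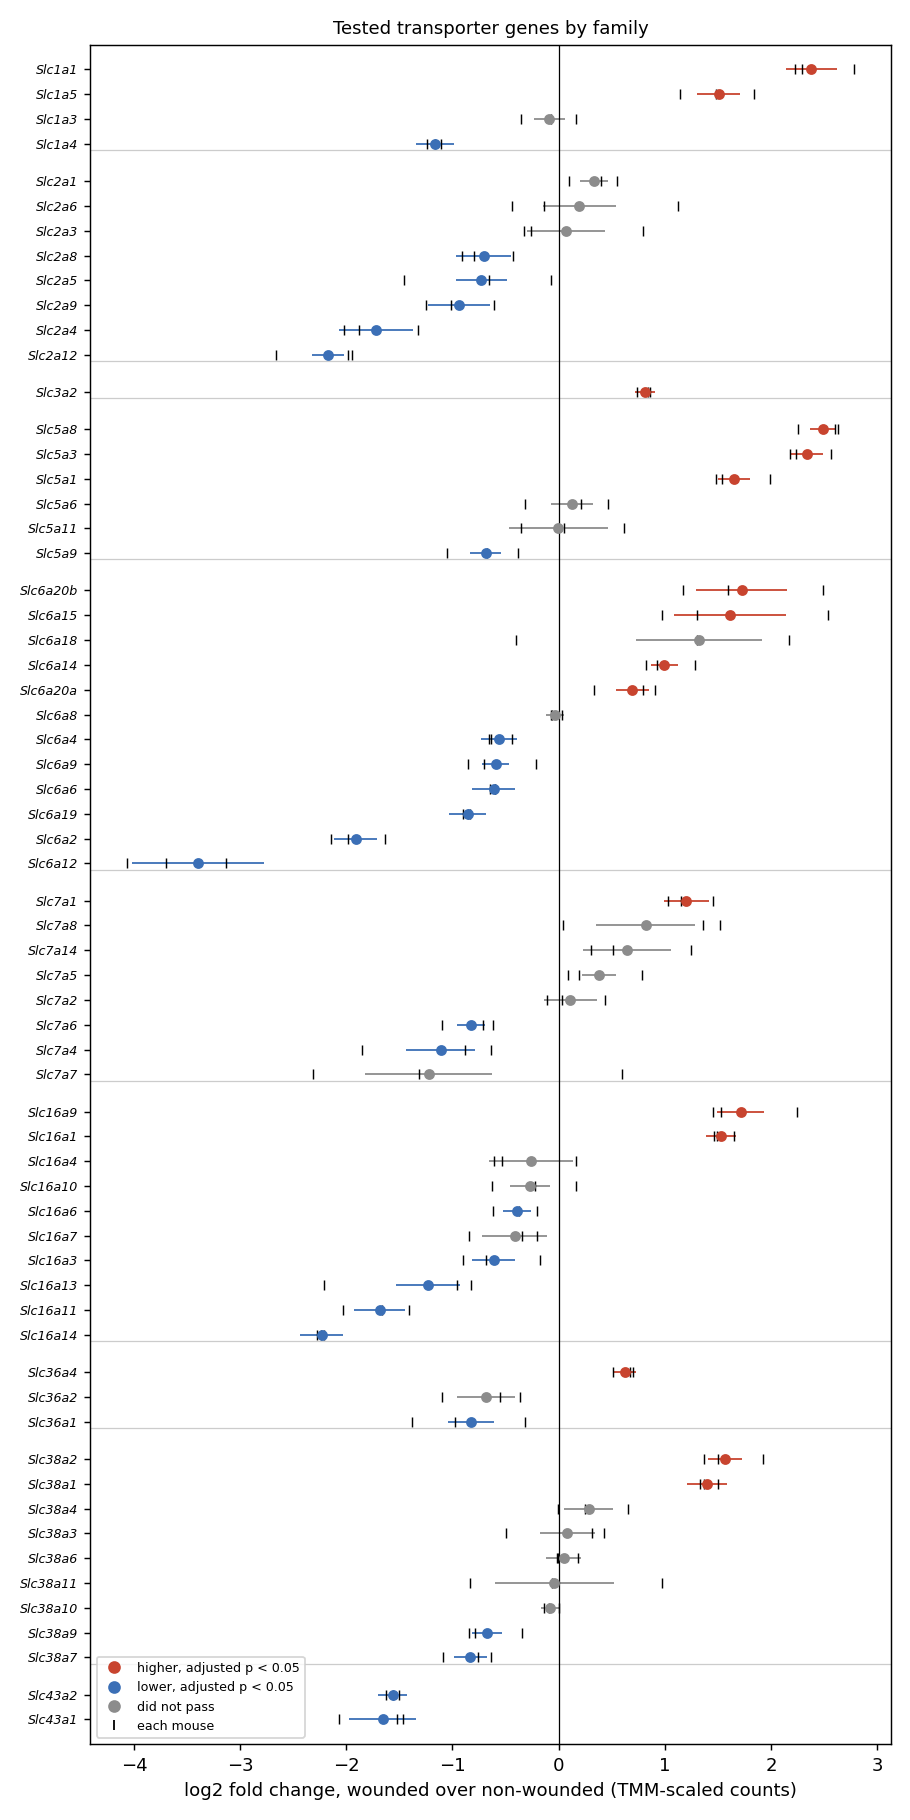
Log2 fold change (wounded over non-wounded) of the tested transporter genes (1 is not drawn), grouped by family from Slc1 to Slc43. Points are edgeR estimates with bars of 1 SE, coloured by call, and ticks are the ratios of TMM-scaled CPM within each mouse. Both Slc43 genes and the called Slc2 genes lie left of 0, and the other families with more than 1 tested gene hold calls on both sides.

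The Slc6 family held abundant carriers of creatine, taurine and amino acids and rarer ones of neurotransmitters. Of 20 genes 12 were tested, 4 rose and 6 fell. The creatine carrier gene Slc6a8 held 235, 236 and 221 CPM in non-wounded and 223, 226 and 226 CPM in wounded epidermis. These values lay close together and the difference did not pass (log2 -0.03, SE 0.08, adjusted p = 0.758 by edgeR). As lower it was called with library totals alone (adjusted p = 0.0035 there, 0.0035 to 0.904 over all settings). Slc6a14 encodes ATB0,+, which takes up neutral and cationic amino acids with sodium and chloride. It held 146, 195 and 208 CPM in non-wounded and 354, 371 and 369 CPM in wounded epidermis and rose 1.99-fold (log2 1.00, SE 0.13, adjusted p = 1.36e-04 by edgeR), with no overlap. The taurine carrier gene Slc6a6 held 306, 327 and 483 CPM in non-wounded and 202, 208 and 319 CPM in wounded epidermis. It was called lower (log2 -0.61, SE 0.20, adjusted p = 0.0303 by edgeR), at log2 -0.65 to -0.60 within the 3 mice, although the wounded library of mouse 3 lay among the non-wounded ones. The call of Slc6a6 ended in DESeq2, with non-wounded mouse 3 left out or with wounded mouse 1 or 2 left out (adjusted p from 0.11 to 0.116 there, 4.19e-06 to 0.116 over all settings). The glycine carrier gene Slc6a9 went from 75.8 ± 10.6 to 50.2 ± 5.39 CPM (log2 -0.59, SE 0.12).

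Among carriers of transmitters, the noradrenaline carrier gene Slc6a2 held 30.1, 20.9 and 21.4 CPM in non-wounded and 7.59, 6.73 and 4.85 CPM in wounded epidermis. It fell 3.76-fold (log2 -1.91, SE 0.20, adjusted p = 4.56e-05 by edgeR). The serotonin carrier gene Slc6a4 went from 48.0 ± 7.57 to 32.6 ± 7.65 CPM and was called lower (log2 -0.56, SE 0.17, adjusted p = 0.0211 by edgeR), with overlapping groups. The call of Slc6a4 ended with non-wounded mouse 2 or 3 left out or with wounded mouse 1 or 2 left out (adjusted p from 0.0544 to 0.0801 there, 1.31e-04 to 0.0801 over all settings). Slc6a12, the betaine and GABA carrier BGT1, had 67 counts in the non-wounded and 5 in the wounded libraries. It was called lower (log2 -3.40, SE 0.62, adjusted p = 0.00134 by edgeR, and log2 -3.99 with wounded mouse 2 left out), and this fold rests on few counts. The neutral amino acid carrier gene Slc6a19 (B0AT1) fell (log2 -0.86, SE 0.17, adjusted p = 0.00218 by edgeR). The call of Slc6a19 ended on log2(TPM + 1) or on log2(TPM + 0.1) (adjusted p from 0.128 to 0.135 there, 2.68e-05 to 0.135 over all settings). Slc6a20a and Slc6a20b are close copies that can share reads, so each value alone is uncertain. Summed, the pair held 14.1, 14.9 and 16.6 CPM in non-wounded and 26.7, 20.6 and 29.9 CPM in wounded epidermis. Sacm1l, at a mean of 78.0 CPM, shares exon sequence with Slc6a20b on the other strand. Slc6a20b held 0.645, 0.419 and 0.945 CPM in non-wounded and 1.45, 2.36 and 2.86 CPM in wounded epidermis, and both were called higher (log2 0.69, SE 0.16 for Slc6a20a and log2 1.72, SE 0.43 for Slc6a20b). The call of Slc6a20a ended with library totals alone, on log2(TPM + 1) or on log2(TPM + 0.1) (adjusted p from 0.0734 to 0.179 there, 1.45e-04 to 0.179 over all settings). The call of Slc6a20b ended on log2(TPM + 1) or on log2(TPM + 0.1) (adjusted p from 0.0526 to 0.0628 there, 0.00106 to 0.0628 over all settings). Slc6a15, at under 1 CPM in each library, was called higher (log2 1.61, SE 0.53). The call of Slc6a15 ended with library totals alone, with no filter on low counts, with the mouse as a block, in DESeq2, on log2(TPM + 1), on log2(TPM + 0.1), with non-wounded mouse 1, 2 or 3 left out or with wounded mouse 1 or 2 left out (adjusted p from 0.0542 to 0.217 there, 0.0272 to 0.217 over all settings). Slc6a18, at 0.455 to 2.59 CPM over the 6 libraries, did not pass (log2 1.32, SE 0.59, adjusted p = 0.088 by edgeR). It was called with wounded mouse 2 left out (adjusted p = 0.0258 there, 0.0258 to 0.497 over all settings).

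Of 4 proton-coupled Slc36 genes 3 were tested. Slc36a4, which encodes the high-affinity amino acid carrier PAT4, held 27.9, 31.0 and 26.6 CPM in non-wounded and 44.6, 44.2 and 43.2 CPM in wounded epidermis. It rose 1.54-fold (log2 0.63, SE 0.10, adjusted p = 6.51e-04 by edgeR), with no overlap. The call of Slc36a4 ended on log2(TPM + 1) or on log2(TPM + 0.1) (adjusted p from 0.109 to 0.12 there, 1.49e-06 to 0.12 over all settings). Slc36a1, the lysosomal carrier PAT1, whose promoter is printed above, went from 16.9 ± 0.509 to 9.51 ± 3.31 CPM and fell (log2 -0.83, SE 0.22, adjusted p = 0.0101 by edgeR). Slc36a2 did not pass (log2 -0.68, SE 0.27, adjusted p = 0.0604 by edgeR). It was called with upper-quartile factors, with library totals alone, with no filter on low counts, with the mouse as a block, on log2(TPM + 1), on log2(TPM + 0.1) or with non-wounded mouse 1 left out (adjusted p from 0.00931 to 0.046 there, 0.00931 to 0.208 over all settings).

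Genes that work beside the transporters were read from lists chosen by function. Of 6 partner proteins, 5 were tested, 2 rose and 1 fell (median log2 0.08). Emb, which encodes embigin, an escort of monocarboxylate carriers, went from 168 ± 10.3 to 212 ± 20.0 CPM (log2 0.34, SE 0.10). Bsg, which encodes basigin, the usual escort of MCT1 and MCT4, stood at 235 ± 12.0 CPM in non-wounded and 248 ± 17.5 CPM in wounded epidermis and did not pass. Of 12 genes of glucose use, 11 were tested, 4 rose and 4 fell (median log2 0.07). The hexokinase gene Hk2, whose product traps glucose in the cell, rose from 25.9 ± 4.87 to 148 ± 22.9 CPM (log2 2.52, SE 0.16). Txnip, whose product lowers GLUT1 at the membrane, fell from 2074 ± 145 to 379 ± 25.1 CPM (log2 -2.45, SE 0.10), and its relative Arrdc4 rose from 61.5 ± 6.77 to 142 ± 7.09 CPM (log2 1.20, SE 0.10).

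Of 20 amino acid enzymes, 18 were tested, 6 rose and 4 fell (median log2 0.10). Odc1, the ornithine decarboxylase that opens polyamine synthesis, rose from 66.1 ± 1.11 to 543 ± 143 CPM (log2 3.04, SE 0.18). Asparagine synthetase, encoded by Asns, rose from 26.0 ± 1.27 to 48.5 ± 6.34 CPM (log2 0.90, SE 0.12). The glutamine synthetase gene Glul fell from 297 ± 11.7 to 42.3 ± 4.26 CPM (log2 -2.81, SE 0.10). Phgdh (log2 -0.74, SE 0.10) and Psat1 (log2 -0.48, SE 0.11) of the same list were called lower too. Of 15 amino acid sensing genes, all 15 were tested, 3 rose and 5 fell (median log2 -0.05). The stress-induced leucine sensor gene Sesn2 rose from 35.4 ± 10.4 to 129.8 ± 7.91 CPM (log2 1.87, SE 0.18), and its relative Sesn1 fell from 213 ± 17.6 to 31.3 ± 1.76 CPM (log2 -2.77, SE 0.10). Atf4, whose product activates several amino acid carrier genes when amino acids are short, rose from 452 ± 55.6 to 703 ± 5.53 CPM (log2 0.64, SE 0.11). The arginine sensor gene Castor1, listed under its older symbol Gatsl3, fell from 5.79 ± 0.821 to 2.45 ± 0.518 CPM (log2 -1.23, SE 0.24). Ddit4 of the same list fell from 89.9 ± 20.1 to 36.2 ± 4.97 CPM (log2 -1.31, SE 0.16). Over all genes tested the median was log2 -0.03, and 24.0% were called higher and 24.4% lower.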

How the data were processed

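RNA of whole mouse epidermis was measured in 6 libraries. Estimated counts by gene symbol and the matching TPM were deposited by the authors, and Salmon, edgeR and the build mm10 are named in the submitters' processing notes. Neither an annotation release nor a strand setting for the counting is given in the sources used here. Values were not whole (tolerance 1e-06) for 30.3% to 32.0% of the deposited estimated counts, and all were rounded. Genes were filtered with filterByExpr, scaled by TMM and fitted with glmQLFit in edgeR 4.0.16 (R 4.3.3), without a mouse term, and p-values were adjusted over all 16079 genes tested. Each SE was taken as the size of the log2 change over the root of its F value. CPM use TMM-scaled library totals. The test was tried on simulated data in which far fewer genes changed than were called here. The outcome is not given, and no result rests on it.

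The labels place same-numbered libraries in the same mouse, which pairs them by animal, and the deviations of the 2 libraries of a mouse correlated at 0.15, 0.04 and 0.17 across genes. Non-wounded and wounded libraries of different mice correlated at -0.145 to 0.0059, under each of these values. A fit with the mouse as a block is an alternative, and it is given beside each gene whose call it changes. The other alternatives were RLE factors, upper-quartile factors, library totals alone, no filter, a filter of at least 1 CPM in 3 libraries, DESeq2 1.42.0, limma 3.58.1 on log2(TPM + 1) and log2(TPM + 0.1), and each library left out, 15 in all.

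Values in every library are given for genes that were called, average at least 1 CPM and differ by at least 2-fold, for the most abundant gene of each family, and for Slc3a2, Slc7a5, Slc2a1, Slc16a1, Slc16a3, Slc1a5 and Slc38a2 in any case. The genes and lists were chosen with earlier results of these data known. Within each group the 3 libraries come from 3 mice, and p-values of the main fit measure the spread between libraries of a group. That fit does not use the pairing by mouse, so it does not measure how the difference varies between animals. Some genes of these families and lists enter the counts or were left out, and are not reported by name here. Gene positions come from GENCODE and promoters from RefSeq, both on GRCm38, the build named mm10 elsewhere.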

Additional observations from a re-analysis of the deposited data

How the results depend on the processing

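Of the 41 transporter genes called, 28 were called under each of the 15 alternatives that gave a value, 13 lost their call under at least 1, and 0 reversed. Over all 105 symbols the count ran from 13 to 18 higher and from 19 to 33 lower. With library totals alone 15 were higher and 33 lower, and over all genes 2168 were higher and 6655 lower, against a shift of the median log2 change of -0.32. On log2(TPM + 1) 1904 of all genes were higher, and on log2(TPM + 0.1) 1895, with median shifts of -0.29 and -0.33. The cause of these differences in count was not tested beyond those shifts. Leaving out 1 library gave 16 to 17 higher and 19 to 25 lower symbols, and 3153 to 3597 higher and 3147 to 3600 lower genes in all. With the mouse as a replicate block 18 symbols were higher and 27 lower. That block added Slc2a1, Slc7a5 and Slc36a2, ended the call of Slc6a15 and changed no other call. Of the 23 transporter genes not called, 10 were called under at least 1 alternative and 10 changed sign under at least 1, so no direction is read for the latter. Slc1a3, 1 of them, ran from log2 -0.20 to 0.012 as single libraries were left out, and the higher end came with non-wounded mouse 3 left out. On log2(TPM + 1), which understates low genes, Slc2a4 stood at log2 -0.88, Slc5a3 at 1.53, Slc6a12 at -1.17, Slc6a20b at 0.30 and Slc38a1 at 0.54. Depth limits the genes at a few counts per library, such as Slc6a12 and Slc6a15, and intervals on counts cover counting error only.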
